A study of Mus musculus with 3 samples.

Results

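The Ifit family of the mouse comprises the interferon-induced genes with tetratricopeptide repeats, and 5 of the 32285 genes counted here carried one of the member symbols Ifit1, Ifit1bl1, Ifit2, Ifit3 and Ifit3b. The members were picked out by these symbols, a rule that uses no expression value, although the family was chosen for description with earlier results of these data known. Their transcripts were counted by 3' single-cell RNA sequencing in organoids, which are epithelial cultures grown in gel from dissociated submandibular salivary gland of C57BL/6 mice aged 8 to 12 weeks. Photon organoids had been given 7 Gy of photons on day 5 of culture, proton organoids had been given 7 Gy of protons in the plateau part of the beam on the same day, and control organoids were not irradiated. All 3 groups came from 4 animals, grew in 1 medium (with conditioned media that supply R-spondin1 and Wnt3a, the growth factors FGF2 and EGF, insulin, dexamethasone and the kinase inhibitor Y27632), and were harvested on day 11. Cells that excluded propidium iodide were sorted, 45000 per group, and each group was 1 library in which cells could not be traced to an animal.

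IFIT proteins are made in most cells after interferon signalling and bind RNA or each other through helical repeats. IFIT1 grips the 5' end of RNA whose cap lacks the ribose methyl mark of host messengers and keeps such RNA from the ribosome, and in human cells IFIT2 and IFIT3 are its partners. Raised IFIT transcripts are part of the interferon signature described in people with Sjögren's disease, an autoimmune disease of the salivary glands.

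The family lies in 1 block on chromosome 19 of the GRCm38 build, at chr19:34550694-34650009, which is 99.3 kb long. The order along the chromosome was Ifit2 (chr19:34550694-34576419, plus strand), Ifit3 (chr19:34583531-34588731, plus), Ifit1bl1 (chr19:34592891-34601956, minus), Ifit3b (chr19:34607970-34613401, plus), Ifit1bl2 (chr19:34617049-34640743, minus) and Ifit1 (chr19:34640871-34650009, plus). Ifit1bl2 is a sixth Ifit symbol in the gene list and no member, and 127 bases separated it from Ifit1. Promoter windows of 300 bases, from 250 before to 50 after an annotated start, are shown for Ifit3 and Ifit3b, which are near-identical, for Ifit1 and for Ifit2. They come from RefSeq (GRCm38.p6) and read 5′ to 3′ on the gene's own strand, which is plus for all 4. Capitals mark each match to the core letters of the interferon-stimulated response element, searched as GAAA, any 2 bases and GAAA, or on the other strand as TTTC, any 2 bases and TTTC.
Ifit3, chr19:34583279-34583578: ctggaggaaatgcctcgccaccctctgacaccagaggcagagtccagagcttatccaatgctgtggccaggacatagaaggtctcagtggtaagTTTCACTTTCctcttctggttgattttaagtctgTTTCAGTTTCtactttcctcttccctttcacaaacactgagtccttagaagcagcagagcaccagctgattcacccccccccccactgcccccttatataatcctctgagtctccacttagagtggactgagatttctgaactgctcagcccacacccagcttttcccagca
Ifit3b, chr19:34607707-34608006: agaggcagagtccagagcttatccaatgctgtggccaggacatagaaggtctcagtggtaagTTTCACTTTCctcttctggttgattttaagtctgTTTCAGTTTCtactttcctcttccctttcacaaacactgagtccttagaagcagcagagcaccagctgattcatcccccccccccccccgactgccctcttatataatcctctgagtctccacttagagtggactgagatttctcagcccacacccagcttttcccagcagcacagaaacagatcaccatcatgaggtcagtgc
Ifit1, chr19:34640639-34640938: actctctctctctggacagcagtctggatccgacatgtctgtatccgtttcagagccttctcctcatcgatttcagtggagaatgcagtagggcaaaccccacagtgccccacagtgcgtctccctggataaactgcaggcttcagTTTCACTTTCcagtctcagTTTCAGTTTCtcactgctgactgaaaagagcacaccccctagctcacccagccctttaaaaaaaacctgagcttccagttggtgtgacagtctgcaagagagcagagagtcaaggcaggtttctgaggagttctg
Ifit2, chr19:34550444-34550743: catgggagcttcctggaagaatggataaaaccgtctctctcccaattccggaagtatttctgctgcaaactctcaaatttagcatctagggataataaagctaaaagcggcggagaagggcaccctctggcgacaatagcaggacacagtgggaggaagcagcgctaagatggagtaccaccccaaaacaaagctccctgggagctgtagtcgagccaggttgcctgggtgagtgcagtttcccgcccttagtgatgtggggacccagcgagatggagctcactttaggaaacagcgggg

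The Ifit3 and Ifit3b windows aligned over 260 bases, of which 258 (99.2%) were identical. Gaps in the alignment, where bases of 1 window are missing from the other, are not counted in this share. Each held TTTCACTTTC followed by TTTCAGTTTC, beginning 156 and 122 bases before the annotated start in Ifit3 and 188 and 154 bases before it in Ifit3b. The Ifit1 window held the same pair of words, beginning 104 and 85 bases before the start. The motif was present in 1131 of all 32851 mouse promoter windows (3.44%), and 74 windows (0.225%) held more than 1 match, matches that overlap included. Each of the windows given for Ifit1bl1 held 1 match, TTTCATTTTC. Neither Ifit2 window held a match, which says only that these letters are not in those windows. Of the 40 listed interferon-stimulated genes outside the family 30 had a window, and 16 of them held the motif in at least 1 window. Counted in the same way by gene, 1079 of all 27025 genes (3.99%) held it. A match is a description of the sequence, and no binding was measured. Which annotated starts are in use in these cells, and any link between the windows and the levels below, was not tested.

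After filtering on detected genes and mitochondrial share, 15041 photon, 13956 proton and 13219 control cells remained, with medians of 2808, 2223 and 2757 unique molecular identifiers (UMIs, each standing for 1 captured transcript). Library totals were 46936995 UMIs for photon, 36692939 for proton and 39514768 for control, and levels are given as CPM, the UMIs of a gene per 1000000 UMIs of its library. The epithelial markers Epcam, Cdh1, Krt8 and Krt18 were all detected and summed to 3299.9 CPM in photon, 1944 in proton and 2469 in control. Acinar markers, which label the saliva-secreting cells, were close to absent except for Aqp5 at 13.8, 12.0 and 11.9 CPM, and Smgc had no UMI in photon or control. The 13 leukocyte markers summed to 2.75, 4.03 and 4.05 CPM in photon, proton and control, and Ncr1, Nkg7 and Siglech had none (0) in any library. With 1 library per group no difference could be tested: ranges in parentheses are exact 95% intervals for counting error alone, and every comparison is one between libraries.

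The whole family was expressed at much higher levels in both irradiated libraries than in control. The 5 members summed to 670.3 CPM in photon, 416 CPM in proton and 9.06 CPM in control (31464, 15271 and 358 UMIs). The photon library stood 74.0-fold above control (66.7 to 82.3) and the proton library 45.9-fold above it (41.4 to 51.2). The comparisons share the control library, so a chance feature of that library enters both.

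Ifit1 (ENSMUSG00000034459), the member that recognises foreign 5' ends, was raised in both irradiated libraries. It stood at 176 CPM in photon, 141 CPM in proton and 5.16 CPM in control (8249, 5161 and 204 UMIs). The ratios to control were 34.0 (29.6 to 39.3) for photon and 27.2 (23.7 to 31.5) for proton.

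Ifit3 (ENSMUSG00000074896), an adaptor that binds other members of the family in human cells, showed the widest contrast among the members. It stood at 385 CPM in photon, 198 CPM in proton and 1.27 CPM in control (18058, 7268 and 50 UMIs). The ratio was 304 (231 to 410) in photon and 157 (119 to 211) in proton.

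Ifit3b (ENSMUSG00000062488), the near-copy of Ifit3, followed it. It stood at 86.2 CPM in photon, 54.6 CPM in proton and 0.709 CPM in control (4044, 2004 and 28 UMIs), and its ratios of 122 (84.0 to 183) and 77.1 (53.2 to 116) lay between those of Ifit1 and Ifit3.

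Ifit2 (ENSMUSG00000045932), which limits virus spread in the mouse brain, responded least among the members with more than 100 UMIs in the irradiated libraries. It stood at 21.9 CPM in photon, 22.2 CPM in proton and 1.72 CPM in control (1026, 814 and 68 UMIs). Photon was 12.7-fold above control (9.93 to 16.5) and proton 12.9-fold (10.1 to 16.8). The intervals of these ratios do not reach those of Ifit1, Ifit3 or Ifit3b in either comparison.

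Ifit1bl1 (ENSMUSG00000079339), a mouse relative of Ifit1, was rare everywhere, at 1.85 CPM in photon, 0.654 CPM in proton and 0.202 CPM in control (87, 24 and 8 UMIs). Its ratios of 9.16 (4.45 to 21.9) in photon and 3.23 (1.40 to 8.32) in proton rest on those 8 control UMIs, 6 of which came from 1 cell. In photon 4 cells held 48 of the 87 UMIs, and the highest cell held 19. In proton, by contrast, the 24 UMIs lay in 20 cells with at most 2 in a cell. When every cell was given equal weight by averaging CPM per cell, the ratios were 24.2 in photon and 11.0 in proton. Ifit1bl2 stood at 4.62 CPM in photon, 5.23 CPM in proton and 0.380 CPM in control, and no cell in any library held more than 2 of its UMIs.

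**Figure D1:**
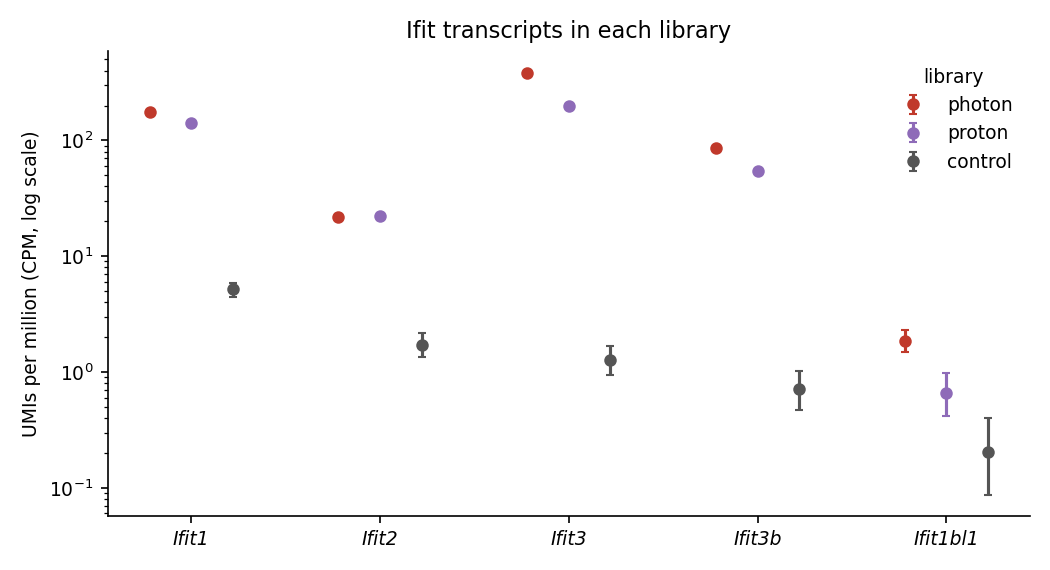
Level of each member in the photon, proton and control libraries, in CPM on a log axis, with exact 95% counting intervals as bars and 1 point per library. Both irradiated points lie above control for each member, from 1.85 and 0.654 CPM against 0.202 CPM for Ifit1bl1 up to 385 and 198 CPM against 1.27 CPM for Ifit3.

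Of the 5 members, Ifit1, Ifit3 and Ifit3b passed the minimum mean of 25 CPM over the libraries compared, and they passed it through their level in the irradiated libraries, so that they had to differ from control. All 3 were at least 1.5-fold higher in photon, where 5.75% of the 5790 genes were at least 1.5-fold higher, 8.19% at least 1.5-fold lower and so 13.9% one or the other. They were also at least 1.5-fold higher in proton, where 10.8% of 5870 genes were higher and 14.9% lower, together 25.7%. Ratios above 10 were found for all 3 in both comparisons, against 0.415% of genes in photon over control and 0.375% in proton over control. Ifit3 and Ifit3b, at 1.27 and 0.709 CPM in control, could not pass the minimum with a lower ratio. Ifit1, at 5.16 CPM in control, could pass only with a ratio close to 10 or above it. These counts therefore do not set the members apart from other genes. Scaling by median-of-ratios size factors in place of the totals turned the split of photon over control from 333 higher and 474 lower genes into 534 higher and 209 lower. That scaling shifted every log2 ratio by 0.14 for photon over control, by -0.01 for proton over control and by -0.15 for proton over photon, and with it the summed family stood 81.7-fold above control in photon and 45.7-fold in proton.

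The listed interferon-stimulated genes outside the family were higher in the irradiated libraries too. Of the 40 interferon-stimulated genes 29 passed the minimum in photon over control, and all 29 were at least 1.5-fold higher. Of all genes tested 5.75% were. The median log2 ratio of the 29 was 3.15 against -0.11 over all genes tested. In proton over control 29 also passed and all 29 were higher, against 10.8% of all genes tested, with a median of 2.71 against 0.00. The log2 ratios of the 3 members that passed were 5.09 to 8.25 in photon and 4.77 to 7.29 in proton. Some listed genes, such as Bst2 at 96.3 CPM in control, could pass the minimum on their control level alone. Others, such as Rsad2 at 0.506 and Iigp1 at 0.304 CPM in control, could pass only by being at least 1.5-fold higher. The filter thus fixed part of the count of 29. It also favours high ratios for the members, which could not pass on their control level, so they cannot be ranked against the list medians. Ifit2 (3.67 in photon and 3.69 in proton) and Ifit1bl1 (3.19 and 1.69) did not pass. Isg15, which encodes a small protein that is joined to others like ubiquitin, had 1267 CPM in photon, 679.8 CPM in proton and 49.2 CPM in control. Irf7, which encodes a factor that drives interferon genes, stood at 399 CPM in photon, 382 CPM in proton and 29.9 CPM in control. It belongs to a list of 17 interferon signalling genes, of which 6 passed the minimum in each comparison with control. In each, 4 of them were at least 1.5-fold higher and 2 were within 1.5-fold. The latter were the kinase gene Jak1 (0.828 in photon and 0.872 in proton) and the receptor gene Ifnar2 (1.23 and 0.809).

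Enzymes of the RNA cap and the translation factor subunits that IFIT proteins bind had ratios closer to 1 than the members. Cmtr1 encodes the methyltransferase that adds the ribose mark by which a cap escapes IFIT1. It stood at 50.3 CPM in photon, 55.2 CPM in proton and 30.3 CPM in control, with ratios of 1.66 (1.55 to 1.78) and 1.82 (1.69 to 1.96), and was the only 1 of 5 measured cap enzymes at least 1.5-fold higher. Ramac, which encodes the activating subunit of the cap guanine methyltransferase, stood at 52.8 CPM in photon, 23.3 CPM in proton and 58.2 CPM in control, and its proton ratio to control was 0.400 (0.369 to 0.433). Of the 13 subunits of translation initiation factor 3, to which IFIT1 and IFIT2 bind, 0 passed 1.5-fold in photon over control, where 13.9% of all genes did, while 2 were higher and 3 lower in proton over control, where 10.8% of all genes were higher and 14.9% lower. These counts are too small to set the subunits apart from other genes. Among the 3, Eif3c stood at 309 CPM in proton and 513 CPM in control, a ratio of 0.602 (0.588 to 0.616).

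Proton and photon organoids had received the same dose, and most members were lower in the proton library. Ifit3 was 0.515-fold (0.501 to 0.529), Ifit3b 0.634-fold (0.601 to 0.669), Ifit1 0.800-fold (0.773 to 0.829) and Ifit1bl1 0.353-fold (0.215 to 0.560) the photon level. Ifit2 was an exception at 1.01-fold (0.925 to 1.11), and median-of-ratios scaling placed it at 0.914. The summed family stood at 0.621-fold (0.609 to 0.633). Of the 3 members that passed the minimum Ifit3 and Ifit3b were at least 1.5-fold lower, in a comparison in which 16.3% of 5814 genes were at least 1.5-fold lower and 22.7% higher, together 39%, and 0% at least 10-fold higher. Median-of-ratios scaling turned the split of all genes from 1318 higher and 948 lower in proton into 786 higher and 1357 lower. Of 33 measured interferon-stimulated genes 6 were higher in proton, 5 lower, among them Isg15 at 0.537-fold, and 22 within 1.5-fold, which is near the shares over all genes. The proton library was also the shallowest per cell, with a median of 2223 UMIs against 2808 in photon. With each cell thinned to 2000 UMIs the family averaged 0.857 UMIs per proton cell and 1.39 UMIs per photon cell. Thinning left out 6017 shallower proton and 4150 shallower photon cells, and the part of depth in the difference was not tested.

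The makeup of the family differed between libraries. Ifit3 held 57.4% of the family's UMIs in photon, 47.6% in proton and 14.0% in control, whereas Ifit1 held 26.2%, 33.8% and 57.0%. Ifit2 held 3.26% in photon, 5.33% in proton and 18.99% in control. The share of Ifit3 was thus larger, and the shares of Ifit1 and Ifit2 smaller, in the irradiated libraries. These shares compare libraries and not members, and 3' UMIs of different genes are captured with different efficiency.

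Counts of the near-identical copies carry an added uncertainty. Ifit3 and Ifit3b transcripts shared 869 words of 50 bases, which was 51.2% of the words of Ifit3 and 44.5% of those of Ifit3b. In the last 500 bases, the end that a 3' library is built to capture, 67 of 451 words of Ifit3 (14.9%) occurred in Ifit3b, and 0 of 451 words at the end of Ifit3b occurred in Ifit3. Reads from a shared stretch cannot be told apart. The handling of intron reads is unknown here, and it could change how reads were split between the copies. Ifit1 shared 184 words with Ifit1bl2 and none (0) of the 451 in its last 500 bases. Ifit1bl1 shared 140 words with Ifit1bl2, 41 of them among the 451 in its last 500 bases (9.09%), and 16 with Ifit1. Ifit2 shared none (0) with any other Ifit transcript. The UMIs of Ifit3b per UMI of Ifit3 were 0.224 in photon, 0.276 in proton and 0.560 in control, so the pair was not counted in 1 fixed ratio.

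Transcripts of the family were spread over a large part of the irradiated cells. To compare shares at 1 depth each cell was thinned to 2000 UMIs, which left 10891 photon, 7939 proton and 9620 control cells and left out 4150, 6017 and 3599 shallower ones. An Ifit UMI was then found in 55.6% of photon cells (54.6 to 56.5), 44.6% of proton cells (43.5 to 45.7) and 1.26% of control cells (1.04 to 1.501). Without thinning the shares were 59.8%, 46.5% and 1.90%. Isg15 was found more widely, in 81.4% of thinned photon cells, 63.8% of proton cells and 7.69% of control cells.

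By member, Ifit3 was found in 41.1% of thinned photon cells, 27.6% of proton cells and 0.239% of control cells. Ifit1 was found in 24.5%, 20.9% and 0.728%, and Ifit3b in 14.5%, 10.2% and 0.0936%. Ifit2 was found in 3.24% of photon cells (2.92 to 3.59), 3.96% of proton cells (3.54 to 4.41) and 0.291% of control cells. Its share was not lower in proton than in photon, unlike those of Ifit1, Ifit3 and Ifit3b, and its photon and proton intervals overlap. The unthinned shares of Ifit2 were 4.73%, 4.66% and 0.499%.

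Cell-free RNA can place a UMI in a droplet whose cell does not express the gene, and no cell type here could serve as one that lacks the family. Barcodes removed by the filters, with medians of 595 UMIs in photon, 618 in proton and 617 in control, held 269, 151 and 1.53 Ifit CPM, below the 670.3, 416 and 9.06 CPM of the kept cells. An Ifit UMI was present in 13.3%, 9.84% and 0.0955% of them. The part of free RNA in the shares was not tested.

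Most positive cells held few Ifit transcripts. At 2000 UMIs 24.6% of photon cells held 1 family UMI, 13.2% held 2, 11.3% held 3 to 4, 5.36% held 5 to 9 and 1.12% held 10 or more. The same classes held 24.8%, 10.9%, 6.51%, 1.89% and 0.453% of proton cells. Cells with 1 UMI were thus as frequent in proton as in photon, and the richer classes were smaller in proton. Unthinned, the highest cell held 95 Ifit UMIs in photon, 64 in proton and 20 in control, and the top 10% of cells held 49.8% of the family's UMIs in photon and 51.6% in proton.

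Several members were often found in the same cell. At 2000 UMIs 33.5% of photon cells had 1 member, 16.8% had 2, 4.81% had 3, 0.496% had 4 and 0.0184% (2 cells) had 5. In proton 30.1% had 1 member, 11.2% had 2, 2.90% had 3 and 0.390% had 4. In control 1.16% had 1 member, 8 of 9620 cells had 2 and 1 cell had 3.

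**Figure D2:**
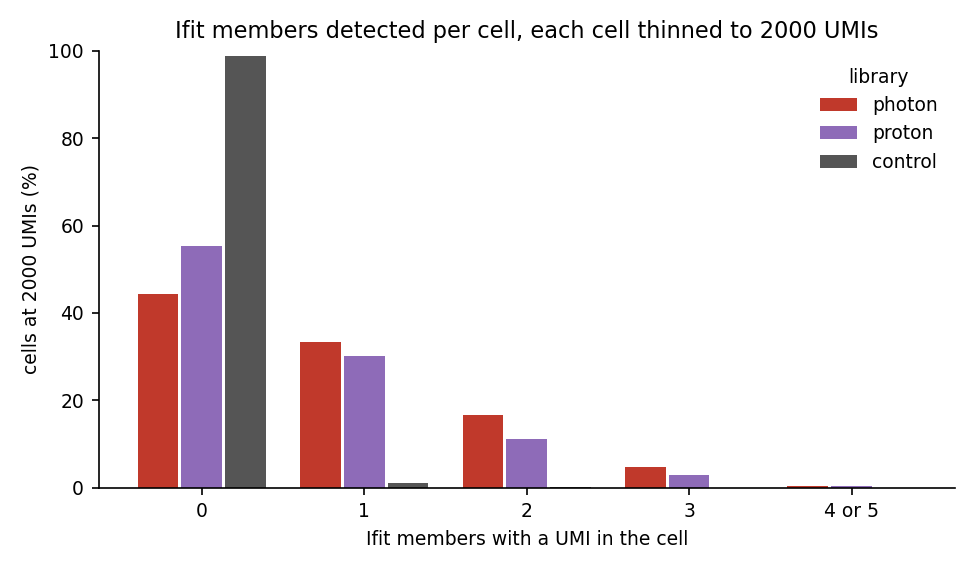
Share of cells, in percent, by how many of the 5 members had a UMI after each cell was thinned to 2000 UMIs, for the photon, proton and control libraries. No member (0) was found in 44.4% of photon and 55.4% of proton cells, against 98.7% of control cells.

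Pairs of Ifit1, Ifit2, Ifit3 and Ifit3b occurred together more often than the product of their shares in photon and proton. Ifit1 and Ifit3 were both found in 1596 photon cells, 1.46 times the 1095 cells given by the product, and in 723 proton cells, 1.58 times the product. Of photon cells with Ifit1, 59.9% also had Ifit3, against 41.1% of all photon cells, and in proton the values were 43.5% and 27.6%. For Ifit3 and Ifit3b the excess was 1.56 times in photon and 1.85 times in proton, and the part of shared reads in it was not tested. Pairs with Ifit2, which shares no 50-base word with the others, were in excess too, at 1.54 times with Ifit3 and 1.85 times with Ifit1 in photon and 1.74 and 1.70 times in proton. Of cells with any Ifit UMI 87.1% in photon and 70.9% in proton also had Isg15, against 81.4% and 63.8% of all thinned cells.

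By correlation across cells of the log-transformed level, the genes most like the summed family among 10429 genes included Isg15, Rsad2, Iigp1, Bst2, Cxcl10, Ifi44, Rnf213, Oasl2 and Trim30a. Mean Pearson's r over the photon and proton libraries, with 15041 and 13956 cells, ran down to 0.181 for Trim30a from 0.305 for Isg15. These are low values in sparse counts of cells that share library and depth, and the order is given as a description. Within the family r for Ifit1 with Ifit3 was 0.337 in photon and 0.257 in proton.

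Ccl5 and Cxcl10 encode chemokines that attract lymphocytes, and a small set of cells was rich in them. Barcodes with at least 8 UMIs of the pair numbered 323 of 15041 in photon (2.15%), 202 of 13956 in proton (1.45%) and 2 of 13219 in control. They are called chemokine-rich below and are cells of the same libraries as those they are set against. Just above the limit, at 8 to 9 UMIs, stood 54 photon and 27 proton barcodes, and just below it, at 6 to 7 UMIs, 70 and 42. Chemokine-rich barcodes were deeper than the others, with a median of 4219 against 2780.5 UMIs in photon and 3315.5 against 2207 in proton. Without the 5% of barcodes with the most UMIs the summed family in chemokine-rich over other barcodes had a ratio of 4.74 in photon and 3.37 in proton.

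The members were higher in chemokine-rich barcodes, in the order Ifit2, Ifit1, Ifit3b and Ifit3 by ratio in both libraries. The intervals of Ifit3b and Ifit3 overlap in both libraries, and those of Ifit1 and Ifit3b overlap in proton. Ifit2 stood at 204 CPM in chemokine-rich and 15.9 CPM in other photon barcodes (ratio 12.8, interval 11.1 to 14.6), and at 129.6 and 19.8 CPM in proton (6.54, 5.27 to 8.06). Ifit1 stood at 784 and 156 CPM in photon (5.03, 4.72 to 5.35), and at 474 and 133 CPM in proton (3.56, 3.20 to 3.95). Ifit2 thus had the highest ratio of the 4 counted members in both libraries, and its intervals lie apart from theirs. These intervals do not cover the spread between cells. In photon 21 cells with at least 5 Ifit2 UMIs held 228 of the 1026, and in proton 9 such cells held 76 of the 814.

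Ifit3 stood at 1230.5 CPM in chemokine-rich and 357 CPM in other photon barcodes (ratio 3.44, interval 3.28 to 3.62), and at 488 and 192 CPM in proton (2.55, 2.29 to 2.82). Ifit3b had similar ratios of 3.57 (3.22 to 3.95) in photon and 2.88 (2.37 to 3.46) in proton. The summed family stood at 2506 and 611 CPM in photon (4.10, 3.96 to 4.25), and at 1247 and 398 CPM in proton (3.14, 2.94 to 3.34). Isg15 was less distinct, at 2.16 in photon and 1.82 in proton, and Irf7 stood at 1.31 in both. Ifit1bl1 had 4 UMIs in chemokine-rich photon barcodes and 3 in proton ones, with intervals of 0.395 to 3.94 and 1.23 to 21.6 around ratios of 1.48 and 6.45.

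**Figure D3:**
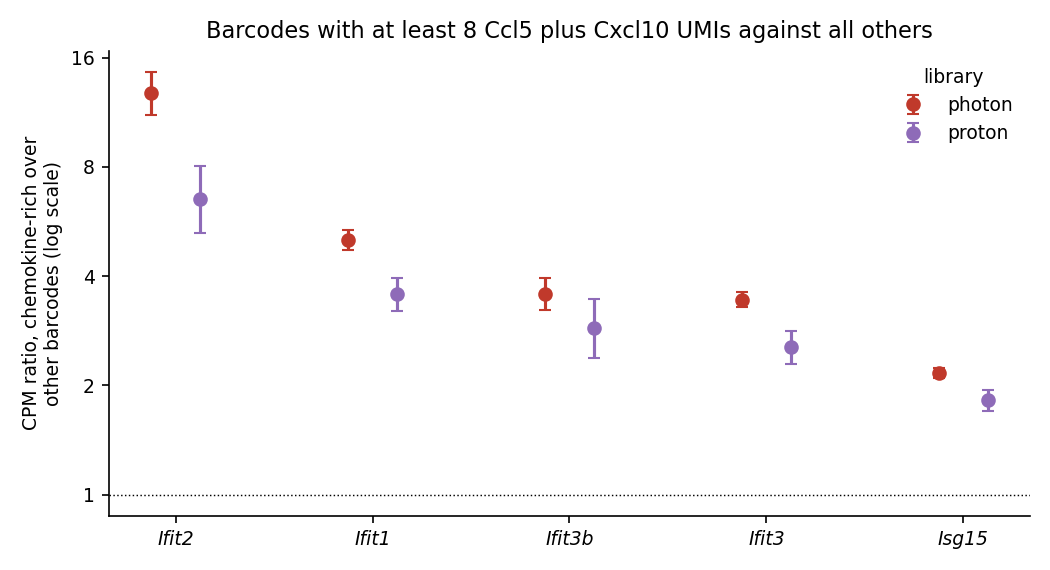
Ratio of CPM in barcodes with at least 8 Ccl5 plus Cxcl10 UMIs over all other barcodes of the same library, on a log axis, for 4 members and Isg15 in photon and proton, with 95% counting intervals. Ifit2 stands highest at 12.8 in photon and 6.54 in proton, and Isg15 lowest at 2.16 and 1.82.

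At 2000 UMIs per cell an Ifit UMI was found in 86.2% of 311 chemokine-rich photon cells and 54.7% of the other photon cells, and in 71.9% of 167 chemokine-rich proton cells and 44.0% of the other proton cells. Ifit2 was found in 18.3% and 2.80% in photon and in 16.2% and 3.69% in proton. So the difference was also present at equal depth. Yet the chemokine-rich barcodes held only 11.8% of the photon and 6.49% of the proton library's Ifit UMIs, and without them the family stood 0.651-fold in proton over photon. Without them Ifit2 alone stood 1.24-fold in proton over photon, against 1.01-fold with them. Leukocyte markers summed to 1.35 CPM in chemokine-rich and 2.79 CPM in other photon barcodes and to 3.78 and 4.04 CPM in proton. Ptprc, which marks leukocytes, had only 3 UMIs in the whole photon library and 6 in the whole proton library. Its 0 UMIs in chemokine-rich barcodes of either library therefore cannot tell these barcodes from the others. Epcam, an epithelial marker, stood at 1567 and 1418 CPM in photon and 814 and 683 CPM in proton.

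The members differed in how they followed the chemokine count. In photon barcodes with 0, 1 to 2, 3 to 7, 8 to 15 and 16 or more chemokine UMIs, Ifit2 stood at 13.2, 26.7, 74.0, 77.0 and 299 CPM. Ifit3 stood at 324, 543, 893, 1054 and 1364 CPM in the same classes, and Ifit1 at 140, 236, 443, 588 and 933 CPM. In proton Ifit2 stood at 16.6, 44.4, 90.0, 55.2 and 172 CPM, and Ifit3 at 174, 351, 488, 466 and 501 CPM. Ifit3 in proton therefore stayed between 466 and 501 CPM from 3 chemokine UMIs upward, while in photon it was higher in each class than in the one before. Ifit levels were already raised in barcodes with 1 or 2 chemokine UMIs.

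**Figure D4:**
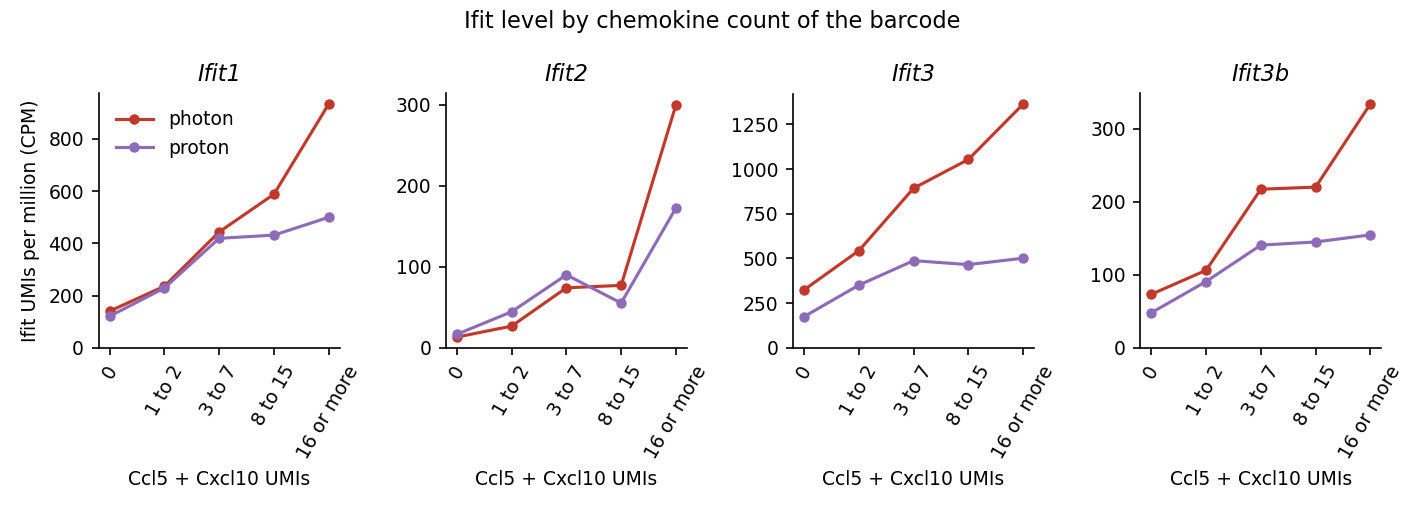
Level of Ifit1, Ifit2, Ifit3 and Ifit3b in CPM (linear axes that start at 0 and differ between panels) by the number of Ccl5 plus Cxcl10 UMIs of the barcode, in photon and proton. Ifit2 reaches 299 CPM in photon and 172 CPM in proton in the highest class, against 13.2 and 16.6 CPM in barcodes with none (0).

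Which of the chemokines chose the barcodes mattered. With at least 8 UMIs of Ccl5, whatever the Cxcl10 count, 204 photon and 191 proton barcodes had a family ratio of 3.18 (3.04 to 3.33) and 2.88 (2.69 to 3.09). With at least 8 UMIs of Cxcl10, whatever the Ccl5 count, 145 photon and 15 proton barcodes had a ratio of 6.26 (6.02 to 6.52) and 9.31 (8.17 to 10.6). Ifit3 stood 2.53-fold in the first and 5.21-fold in the second set in photon, sets that can share barcodes, and 2.24-fold and 7.85-fold in proton. The second proton set is small, and Cxcl10 was lower in proton than in photon as a whole, at 27.3 against 85.7 CPM.

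A few barcodes held a transcript of an interferon itself. There were 12 such barcodes in photon, 12 in proton and 1 in control, with UMIs of Ifnb1 (16, 16 and 0), Ifnl2 (36, 9 and 1), Ifnl3 (25, 5 and 0) and Ifna4 (1, 2 and 0), and Ifng had none (0). Their summed Ifit level was 7059 CPM against 663 CPM in all other photon barcodes, and 3303 CPM against 413 CPM in proton. Of them, 8 in photon and 3 in proton were chemokine-rich. Without these barcodes the Ifit2 ratio of chemokine-rich over other barcodes was 9.71 (8.32 to 11.3) in photon and 6.38 (5.10 to 7.90) in proton, still above the other counted members. This comparison was added after the data had been seen.

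Ifit UMIs were found in every cluster of cells in each library, at different levels. All cells were grouped into 8 clusters with the listed interferon and cell cycle genes and the Ifit genes left out of the clustering. Interferon genes outside the lists were not left out, and Ifi27 ranked 4 among the leading genes of cluster 0. The clusters are named by number and leading genes. Among clusters 0 to 5, each of which held at least 100 cells per library, family levels were highest in cluster 3, led by Sorbs2 and Cst6, at 940.1 CPM in photon, 559.8 CPM in proton and 15.3 CPM in control. They were lowest in cluster 4, led by Igfbp2 and Apoe, at 294, 180.4 and 3.57 CPM, the last from 3 UMIs. The highest over the lowest level among clusters of at least 100 cells in the library was 4.03 in photon and 3.10 in proton. The lowest such cluster was cluster 6 in photon, at 234 CPM in 581 cells, and cluster 4 in proton, so these values do not compare the same clusters. Cluster 6 was rich in mitochondrial transcripts and Malat1. There mt-Cytb stood at 12565 CPM against 2572 CPM in the rest, and Malat1 at 92755 against 23232 CPM. CPM is a share of all UMIs, and the part of these transcripts in the low Ifit level of cluster 6 was not tested.

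At 2000 UMIs an Ifit UMI was found in 66.3% of photon cells of cluster 3 and 35.2% of those of cluster 4, and in 51.5% and 24.7% of proton cells. The family held 0.681 UMIs per Isg15 UMI in cluster 3 and 0.246 in cluster 4 in photon, and 0.758 and 0.256 in proton. The relation of the family to Isg15 was thus not the same in all clusters. In the clusters 0 to 5 the proton level was 0.354-fold to 0.633-fold the photon level, with the lowest value in cluster 5, led by Krt13 and Tmprss11b, at 195 CPM in proton and 550.4 CPM in photon (ratio interval 0.319 to 0.392). Cluster 6, led by 5330438D12Rik, was shallow, with medians of 882 UMIs in photon, 942 in proton and 936.5 in control, and held only 40 proton cells. There the order of the irradiated libraries was turned, at 450.6 CPM from 19 UMIs in proton and 234 CPM from 139 UMIs in photon (ratio 1.93, interval 1.13 to 3.13). The libraries filled the clusters unequally: cluster 0, led by Aox3 and Orm3, held 2673 photon, 792 proton and 7446 control cells, and cluster 2 held 1193, 5893 and 160. Averaged over clusters 0 to 5 with equal weights, the family stood 62.5-fold above control in photon and 34.2-fold in proton. Chemokine-rich barcodes were spread unevenly too. In photon 164 of the 323 lay in cluster 1, 85 in cluster 3, 16 in cluster 4 and 9 in cluster 0. In proton 81 of the 202 lay in cluster 2, 66 in cluster 3, 40 in cluster 1 and 4 in cluster 4. The part of cluster makeup in the chemokine-rich ratios was not tested.

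By UMIs Ifit1bl1 was the most uneven member across clusters. Of its 87 photon UMIs 49 came from cluster 5 and 29 from cluster 3, while clusters 0, 4, 6 and 7 had none (0). Of its 24 proton UMIs 15 came from cluster 3 and 5 from cluster 5. Ifit3, by contrast, held between 51.5% and 60.1% of the family's UMIs in the photon cells of clusters 0 to 5 and between 37.8% and 48.9% in proton.

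**Figure D5:**
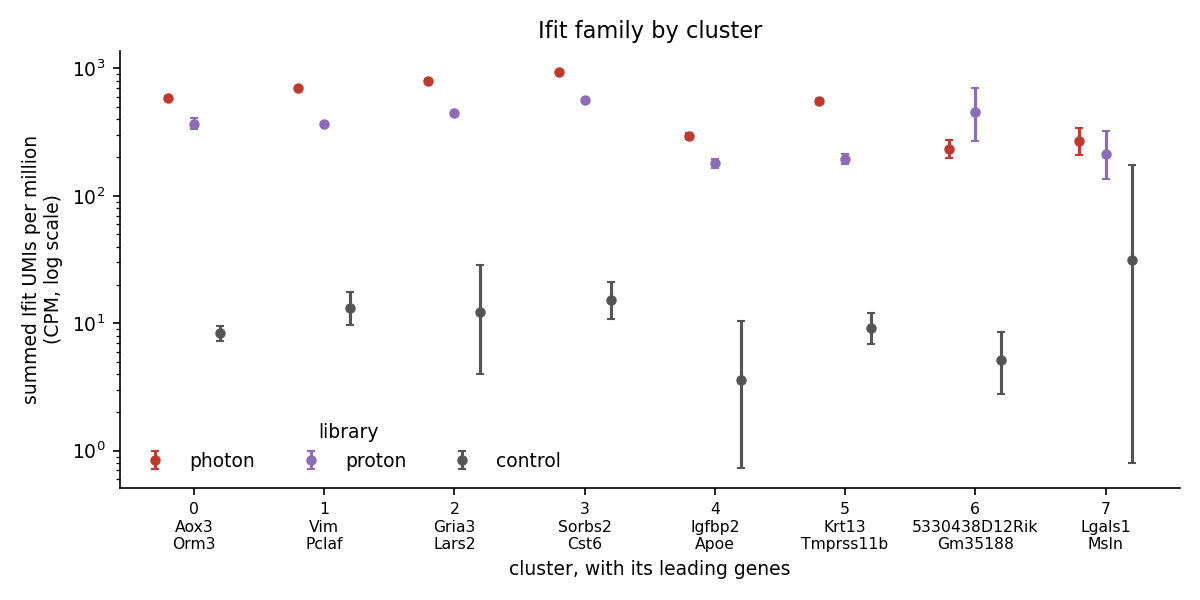
Summed Ifit level in CPM on a log axis for each of 8 clusters, named by leading genes, in photon, proton and control, with 95% counting intervals. Both irradiated libraries lie above control in each of clusters 0 to 6, and the control value of cluster 7 rests on 1 UMI.

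Unirradiated organoids were not free of the family. In control 251 of 13219 cells had an Ifit UMI, and 7 of these had at least 5, which together held 66 of the 358 UMIs. The highest held 20. Some barcode strings were found in more than 1 library, and 53 were shared by photon and proton, 49 by photon and control and 56 by proton and control. Of the 251 control cells 4 had a shared string, and of the 7 with at least 5 UMIs 0 had one. Without every barcode whose string occurred in another library, the summed family stood 74.2-fold above control in photon and 46.0-fold in proton. Of control cells with an Ifit UMI at 2000 UMIs 35.5% also had Isg15, against 7.69% of all control cells.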

How the data were processed

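The authors deposited, per the file headers, raw UMI counts per gene and barcode for 3 libraries, 1 per group. Reads had been processed with Cell Ranger 7.0.1 against mm10 per the submitters' processing notes, while the file headers name 7.0.0. Not given in the sources used here are the annotation release, the barcode filter and the handling of intron reads. Every deposited barcode held at least 500 UMIs.

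Barcodes with at least 500 genes and at most 20% mitochondrial UMIs were kept, and UMIs were summed per library and scaled to CPM. No doublet caller was run, and an alternative leaves out the 5% of barcodes with the most UMIs. Ratios have exact conditional Poisson intervals and shares exact binomial (Clopper-Pearson) intervals at 95%, for counting error alone. A count of 0 allows up to 3 counts, which is 0.0639 CPM in photon, 0.0818 in proton and 0.0759 in control. Genes with a mean of at least 25 CPM and a fold of at least 1.5 were counted. Thinning drew 2000 UMIs per cell without replacement. Clusters came from 2000 variable genes, 30 principal components, 20 neighbours and leidenalg 0.10.2 at resolution 0.5, with no correction between libraries. The counting and thinning steps were tested on simulated data.

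Genes named are all members, Ifit1bl2, genes of fixed lists with a stated role, 3 flanking genes on each side and the 10 genes most alike across cells, of which 1 is not reported here. The members and lists were chosen with earlier results of these data known. Gene positions and transcripts are from GENCODE (GRCm38) and promoter windows from RefSeq (GRCm38.p6). Python 3.11.15, numpy 2.4.6, scipy 1.17.1 and pandas 2.3.3 were used.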

Additional observations from a re-analysis of the deposited data

How the results depend on the processing

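The summed family kept its direction in each comparison under every alternative. Among single members, Ifit2 in proton over photon ranged over 0.857 to 1.24, on both sides of 1, and Ifit1bl1 in photon over control over 8.75 to 24.2. Averaging CPM over cells gave 82.9 for photon over control and 52.3 for proton over control, and equal cluster weights gave 62.5 and 34.2. Proton over photon was 0.559 with median-of-ratios scaling, 0.605 without the 5% of barcodes with the most UMIs, 0.651 without chemokine-rich barcodes and 0.547 with equal cluster weights. The share of cells with an Ifit UMI in photon, proton and control was 37.1%, 27.5% and 0.616% at 1000 UMIs per cell, 71.9%, 63.8% and 3.05% at 4000 UMIs, and 59.8%, 46.5% and 1.90% without thinning. The chemokine-rich ratio in photon was 3.82 from 4 chemokine UMIs, 4.66 from 16, 4.30 with thinned cells, 4.74 without the deepest 5% of barcodes, 3.18 by Ccl5 alone, 6.26 by Cxcl10 alone and 3.81 without barcodes with an interferon UMI, an alternative chosen after seeing the data. In proton it was 3.37 without the deepest 5%, 2.88 by Ccl5 alone and 9.31 by Cxcl10 alone. Ifit1 with Ifit3 was found 1.71 times (photon) and 1.82 times (proton) as often as the product of shares at 1000 UMIs, and 1.29 and 1.33 times at 4000 UMIs.

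Counts of all genes past the fold moved by more than 1.5 times under the alternatives that follow. With no minimum level they were 3927 higher and 5797 lower (photon over control), 5647 and 5698 (proton over control), and 6782 and 4767 (proton over photon). With a minimum of 5 CPM they were 744 and 954, 1448 and 1517, and 2258 higher for proton over photon. At 2-fold they were 132 and 49, 202 and 265, and 181 and 226. Median-of-ratios scaling gave 534 and 209 for photon over control and 786 higher for proton over photon. The cause of these shifts was not tested. A further 39 of the values that answer a comparison stayed within counting error or within 1.5 times, as did 99 of the values of single members, while 19 values of single members moved.

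No paired analysis was possible because each group is 1 library. Depth limits Ifit1bl1, with 8 control UMIs, and the control values of single clusters. Without replicate cultures, the spread between cultures is unknown.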

Other observations

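The genes that flank the Ifit block had lower ratios to control than 4 of its members. On the side of Ifit2, Lipa, which encodes the lysosomal acid lipase, stood at 11.0 CPM in photon, 12.0 CPM in proton and 5.92 CPM in control, with ratios to control of 1.86 (1.59 to 2.18) and 2.03 (1.73 to 2.39). Ch25h, which makes 25-hydroxycholesterol and is itself interferon-inducible in other cells, stood at 1.98, 1.34 and 2.13 CPM, with ratios of 0.932 (0.686 to 1.27) and 0.628 (0.432 to 0.904). Fas, the death receptor, stood at 20.3, 21.1 and 25.5 CPM. On the side of Ifit1, Slc16a12 stood at 1.81, 3.65 and 2.66 CPM, and Pank1, a kinase of coenzyme A synthesis, at 12.6, 12.5 and 17.4 CPM. Kif20b, a kinesin of dividing cells, stood at 16.4 CPM in photon, 16.2 CPM in proton and 4.56 CPM in control, with ratios of 3.61 (3.06 to 4.27) and 3.55 (3.003 to 4.22). The highest flanking ratio was below the lowest ratio of Ifit1, Ifit2, Ifit3 and Ifit3b, which was 12.7 in photon and 12.9 in proton, but in proton it was above that of Ifit1bl1, at 3.23 (1.40 to 8.32). None (0) of the 6 flanking genes reached a mean of 25 CPM in photon over control.

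Ifit1bl2, whose annotated start lies beside that of Ifit1 on the opposite strand, stood 12.2-fold (7.22 to 22.1) above control in photon and 13.8-fold (8.15 to 25.1) in proton, from 217, 192 and 15 UMIs in photon, proton and control. In chemokine-rich barcodes its ratio was 1.18 (0.502 to 2.36) in photon and 1.96 (0.836 to 3.95) in proton, on 8 UMIs each. One of its RefSeq promoter windows, chr19:34640694-34640993 on the minus strand, overlaps the Ifit1 window and holds the same matches read from the other strand, 70 and 51 bases before its start.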
